A study of Canis lupus familiaris with 33 samples.

Results

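The 8 genes of the prostaglandin pathway described here were followed in lymph nodes of dogs with diffuse large B-cell lymphoma (DLBCL), which arises from mature B cells, and in nodes of healthy dogs. They are 4 enzymes that make prostaglandins (PTGS1, PTGS2, PTGES and PTGDS), 3 receptors (PTGDR, PTGER2 and PTGER4) and 1 enzyme that breaks prostaglandins down (HPGD). Every probeset with one of these symbols as its single gene name was taken, which gave 11 of the 43035 probesets and 8 of the 15115 named genes of the array. The genes were selected on measured values, with the log2 differences between DLBCL and healthy nodes known, so that this contrast is described for them without a test.

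Prostaglandins are short-lived lipid signals made from arachidonic acid, which phospholipases free from cell membranes. The cyclooxygenases PTGS1 and PTGS2 turn it into a common precursor, from which PTGES makes prostaglandin E2 and PTGDS makes prostaglandin D2. The receptor PTGDR answers to prostaglandin D2 and the receptors PTGER2 and PTGER4 to prostaglandin E2, while HPGD starts their inactivation. In lymphoid tissue prostaglandin E2 is known as a regulator of T cells, dendritic cells and macrophages, and PTGS2 is the form that inflammation induces.

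RNA of DLBCL biopsies and of healthy nodes was hybridised to 33 Affymetrix Canine Genome 2.0 arrays. Of these, 7 were of DLBCL relapsed after chemotherapy (ages 6.4 to 11.8 years, 13 to 672 days after the last treatment, a CHOP protocol named for 4), 16 of DLBCL from treatment naive dogs (ages 2.7 to 13.3 years) and 10 of healthy nodes from dogs put down for conditions other than lymphoma (ages not given). The other relapsed samples were listed with GS, with Dox/Pred CCNU/L-Aspar/Pred and, for DLBCL sample 12, with Dox/Cytoxan/Pred. DLBCL sample 18 was listed with CCNU/L-Aspar/Pred as well as CHOP. An effect of the protocol was not tested. The nodes were not sorted, so every value is a mean over tumour cells and the other cells of the node. Rimadyl, a brand of carprofen and an inhibitor of cyclooxygenases, was listed for 2 naive dogs, tramadol for 1 relapsed dog and doxycycline for 1 naive dog, none for 12 DLBCL samples, and for the other 7 DLBCL samples and the healthy dogs no information was given. By their case numbers, DLBCL samples 12 (relapsed) and 11 (naive) came from a single animal and healthy samples 1 to 4 from another (healthy dog 1), which leaves 22 DLBCL and 7 healthy dogs.

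Values are log2 levels normalised by RMA, with array medians of 6.85 to 6.97, and 17 control probesets without a canine target had means of 2.79 to 4.56. Arrays of 1 dog were averaged for comparisons of DLBCL with healthy dogs. The RNA integrity number (RIN) was 9.64 ± 0.294 in DLBCL (SD, n = 22 dogs) and 7.11 ± 1.12 in healthy nodes (SD, n = 7 dogs), with healthy dog 1 at 9.15 and the other healthy dogs at 7.7 or below. Markers of other cells moved with the groups too. Of 11 T-cell genes 9 were lower in DLBCL (limma, adjusted p under 0.05), and their mean level was 7.64 to 10.06 in DLBCL dogs and 10.34 to 11.26 in healthy dogs. Lower too were 5 of 7 dendritic cell genes (mean 7.84 to 9.62 in DLBCL, 9.96 to 10.68 in healthy dogs), 4 of 6 endothelial genes (8.34 to 9.90 and 9.79 to 10.48), 3 of 9 macrophage genes (9.02 to 11.66 and 10.32 to 12.49), 3 of 7 mast cell genes (5.79 to 10.75 and 7.18 to 8.76) and 3 of 7 natural killer cell genes. Of 6 B-cell genes 2 were higher and 0 lower. Only NCR1, a natural killer cell receptor, was near the control probesets, and the part of these cells in the differences below was not tested.

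DLBCL sample 5, labelled as naive, stood apart. Its level of MS4A1, the B-cell antigen CD20, was 8.51, against 12.57 to 13.86 in the other DLBCL arrays. CPA3, a mast cell protease, was at 12.28 there, against 3.32 to 8.73 in the others, and the mean of 6 B-cell genes was 7.97, below every healthy dog (9.41 to 10.31). PAX5, another of these 6 genes, was at 6.14, within the 5.66 to 6.35 of the other DLBCL arrays. PAX5 differed by only 0.10 between DLBCL and healthy dogs (limma adjusted p = 0.255), so that its level cannot decide on the label. The mean of the B-cell genes went against the label of sample 5. The study describes grading by pathologists and CD3/PAX5 marker analysis for its DLBCL dogs. Results that rest on sample 5 are given with and without it. DLBCL sample 18 had the highest mean of the stromal markers (12.24) and was left out together with sample 5 in a further alternative.

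By the probeset of highest mean, all 8 genes had a lower mean in DLBCL than in healthy dogs, with a median difference of -1.20 against 0.06 over all genes. That of PTGS2 was near 0 and changed sign with RIN as a covariate, with arrays taken separately, with a replicate block and in relapsed samples alone. The difference was below -1, a halving, for 5 of the 8 (PTGDR, PTGS1, PTGDS, PTGES and HPGD), and 5.15% of all genes were lower by as much. With the mean of a gene's probesets PTGES (-0.87) left these 5 and PTGER2 (-1.03) joined them. For 2 (PTGDR and PTGS1) every DLBCL dog lay below every healthy dog, which held for 1.18% of all genes. These counts follow from the choice of the genes and are given as a description. Without DLBCL samples 5 and 18, PTGDS and HPGD also ceased to overlap, which made 4 genes. That follows from leaving out the samples with the highest PTGDS (sample 18, 10.82) and the highest HPGD (sample 5, 9.70). The share of all genes was not computed in that setting. With arrays taken separately only PTGS1 was free of overlap. Of the 11 probesets 10 were above the 25th percentile of mean level. In unsorted nodes, fewer cells of a type and less RNA per cell cannot be told apart.

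**Figure D1:**
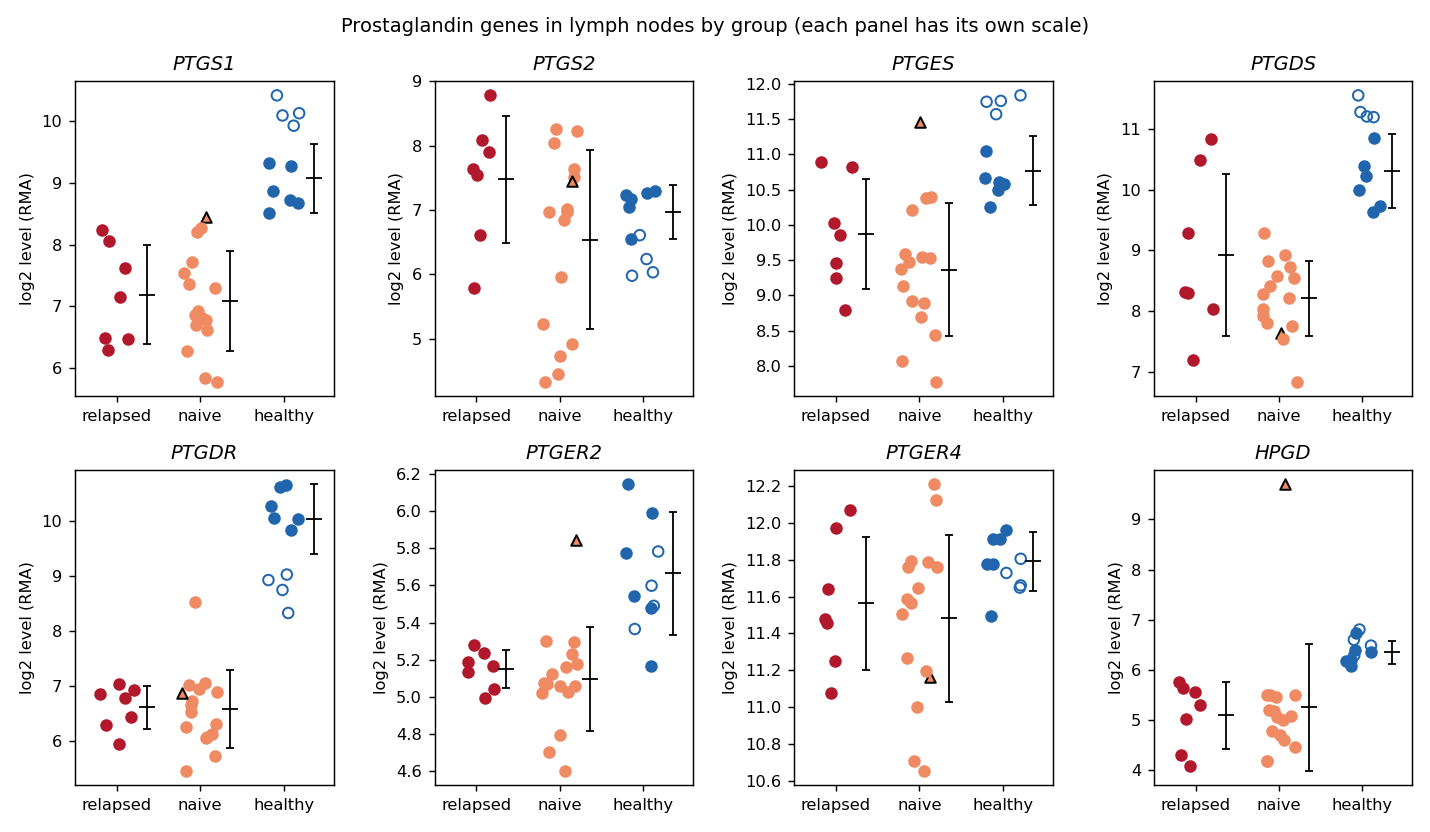
Log2 levels of the 8 genes in relapsed DLBCL, naive DLBCL and healthy arrays, 1 point per array, with mean and SD at the right of each group (healthy dog 1 counted once). Triangles mark DLBCL sample 5 and open circles the 4 arrays of healthy dog 1. PTGS1 alone has no overlap between DLBCL and healthy points, in PTGDR naive sample 23 (8.53) lies above 1 array of healthy dog 1 (8.33), and HPGD of sample 5 stands alone at 9.70.

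PTGS1, the cyclooxygenase that most tissues express without a stimulus, was at 6.29, 7.14 and 8.24 (lowest, median and highest) in the 7 relapsed arrays. In the 16 naive arrays it was at 5.77, 6.89 and 8.45, and in the 7 healthy dogs at 8.51, 8.87 and 10.15. The DLBCL arrays did not reach the healthy ones, and the smallest gap was that between DLBCL sample 5 and healthy sample 7. The mean was 7.10 ± 0.77 in DLBCL (SD, n = 22) and 9.08 ± 0.56 in healthy dogs (SD, n = 7), a difference of -1.98 (SE 0.30) or 3.93-fold. Healthy dog 1 had the highest level of the healthy dogs, and without it the difference was -1.80.

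PTGS2, the inducible cyclooxygenase, behaved differently from PTGS1. It was at 5.79, 7.64 and 8.78 in relapsed arrays, at 4.33, 6.96 and 8.26 in naive arrays and at 6.21, 7.17 and 7.30 in healthy dogs. The DLBCL dogs lay on both sides of the healthy range, with 10 above every healthy dog and 6 below every healthy dog. The means of 6.83 ± 1.34 in DLBCL and 6.97 ± 0.42 in healthy dogs differed by -0.14 (SE 0.50), less than the spread among tumours. The SD of 1.34 among DLBCL dogs was larger than that of 98.3% of genes, whose median SD was 0.27. The lowest DLBCL levels of PTGS2, down to 4.33, lay within the 2.79 to 4.56 of the control probesets. In the 2 samples of dogs listed with rimadyl, PTGS2 was at 6.96 (sample 8) and 5.23 (sample 16), both within the range of the other naive arrays. Sample 16 was the lowest DLBCL array for PTGS1 (5.77) and PTGDR (5.47), and sample 8 was not (6.28 and 6.06). An effect of the drug was not tested. With RIN as a covariate the difference was 0.77 (SE 1.08), and in relapsed samples alone it was 0.51.

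PTGES, the inducible prostaglandin E synthase, was lower in most tumours. By its probeset of highest mean it was at 8.80, 9.85 and 10.89 in relapsed arrays, 7.78, 9.42 and 11.45 in naive arrays and 10.25, 10.60 and 11.73 in healthy dogs. Of the 22 DLBCL dogs 17 were below every healthy dog and 0 above, and the highest DLBCL value was that of sample 5. The means were 9.53 ± 0.91 in DLBCL and 10.77 ± 0.49 in healthy dogs, a difference of -1.24 (SE 0.35). The other 2 probesets of PTGES differed by -0.80 (SE 0.27) and -0.58 (SE 0.20), and over DLBCL dogs the 3 probesets followed each other with r of 0.945 to 0.98. The direction was therefore shared by the probesets, while the size was not.

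PTGDS, the lipocalin-type prostaglandin D synthase, was at 7.20, 8.31 and 10.82 in relapsed arrays and at 6.83, 8.25 and 9.28 in naive arrays. In healthy dogs it was at 9.64, 10.22 and 11.30. All naive arrays lay below the healthy dogs, and only relapsed samples 12 (10.48) and 18 (10.82) reached them. The mean was 8.37 ± 0.87 in DLBCL and 10.30 ± 0.60 in healthy dogs, a difference of -1.93 (SE 0.34) or 3.81-fold. Relapsed samples alone differed from healthy dogs by -1.38.

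PTGDR, the prostaglandin D2 receptor that couples to cyclic AMP, showed the largest difference of the 8 genes. It was at 5.95, 6.78 and 7.03 in relapsed arrays, 5.47, 6.60 and 8.53 in naive arrays and 8.75, 10.04 and 10.64 in healthy dogs. One tumour, naive sample 23 at 8.53, came close to the healthy dogs, and the next highest DLBCL array was at 7.06. Sample 23 also had the highest mean of the T-cell markers among DLBCL dogs (10.06), and its part in the value was not tested. Healthy dog 1 was the lowest healthy dog, with 8.33 to 9.02 on its 4 arrays against 9.83 to 10.64 in the other 6, so that 1 of its arrays was below sample 23. The mean was 6.59 ± 0.63 in DLBCL and 10.02 ± 0.64 in healthy dogs, a difference of -3.44 (SE 0.26) or 10.85-fold. With RIN as a covariate the difference was -2.05 (SE 0.49). Healthy dog 1 had both the lowest PTGDR level and the highest RIN of the healthy dogs, and the part of RNA quality was not tested further.

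PTGER2, a receptor for prostaglandin E2 whose gene lies next to PTGDR in the RefSeq annotation of the dog genome (UU_Cfam_GSD_1.0), was not far above the control probesets. By its brighter probeset it was at 4.99, 5.17 and 5.28 in relapsed arrays, 4.60, 5.07 and 5.85 in naive arrays and 5.17, 5.56 and 6.15 in healthy dogs. The groups overlapped, with 13 of 22 DLBCL dogs below every healthy dog and sample 5 the highest tumour. The difference was -0.54 (SE 0.11) by this probeset and -1.51 (SE 0.34) by the dimmer one, whose lowest DLBCL values, down to 2.72, were as low as the control probesets. The probesets shared the sign and not the size.

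PTGER4, the other prostaglandin E2 receptor of the set, changed least among the receptors. It was at 11.08, 11.48 and 12.07 in relapsed arrays, 10.65, 11.58 and 12.21 in naive arrays and 11.50, 11.78 and 11.96 in healthy dogs. Of the DLBCL dogs 9 were below and 4 above every healthy dog. The difference was -0.27 (SE 0.15), with an interval of -0.58 to 0.05 that includes 0. Its spread among tumours (SD 0.40) was wider than among healthy dogs (SD 0.16).

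HPGD, the dehydrogenase that starts prostaglandin inactivation, was at 4.08, 5.30 and 5.75 in relapsed arrays, 4.18, 5.08 and 9.70 in naive arrays and 6.08, 6.36 and 6.74 in healthy dogs. All DLBCL dogs but 1 lay below every healthy dog, and the exception was sample 5 at 9.70, above them all. The mean of 5.20 ± 1.12 in DLBCL against 6.36 ± 0.23 in healthy dogs gave a difference of -1.16 (SE 0.42). Without sample 5 it was -1.37 (SE 0.20). The lowest DLBCL levels of HPGD, down to 4.08, lay within the 2.79 to 4.56 of the control probesets. Sample 5 also carried TBXAS1, thromboxane synthase, at 11.32 (8.15 at most in the other DLBCL arrays) and ALOX5, the first enzyme of leukotriene synthesis, at 10.02 (7.65 at most).

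**Figure D2:**
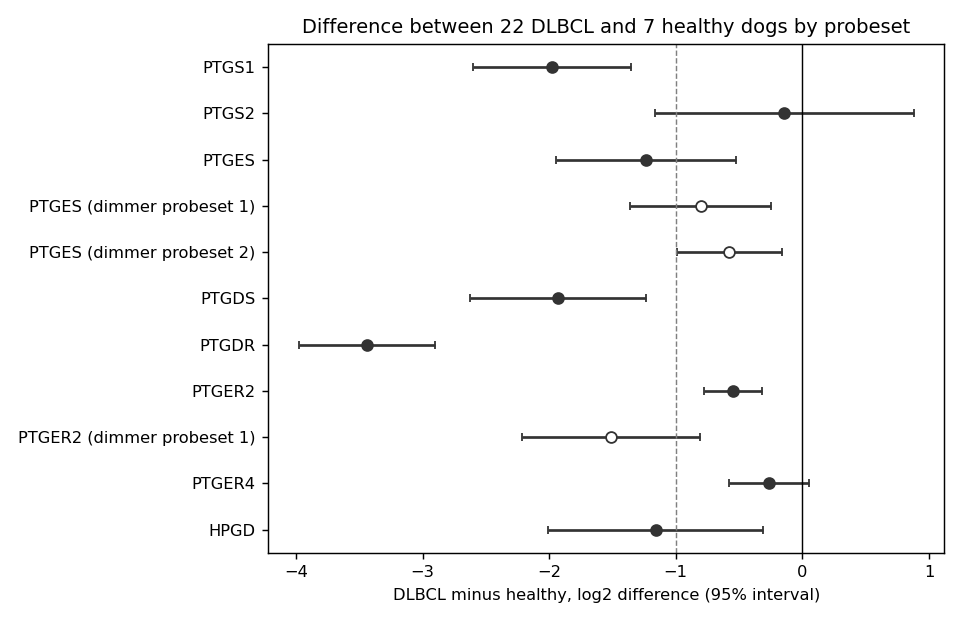
DLBCL minus healthy log2 difference with its 95% interval for the 11 probesets (22 DLBCL and 7 healthy dogs); filled points are the brightest probeset of each gene and open points the dimmer ones, and the dashed line marks -1. All points lie left of 0, PTGDR farthest at -3.44, and the intervals of PTGS2 and PTGER4 include 0.

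The choice of the 8 did not use the other genes of the pathway, but their list was drawn up with earlier results of these data known. These other genes were tested with limma between DLBCL and healthy dogs (Benjamini-Hochberg over 43035 probesets). Of 31 measured genes 5 were lower and 3 higher at an adjusted p under 0.05, against 14.9% of all genes lower and 19.9% higher. The share of lower genes was close to that over the array, and the share of higher genes was below it. Neither share was tested against the array, and the counts are no result about the pathway. With RIN as a covariate 1 gene (ALOX12) was lower and 0 were higher, while the standard errors grew, for PTGES3 to 0.26 against 0.12 without RIN. The differences in that fit were close to those without RIN for PTGES3 (0.84), TBXA2R (-0.41) and PLA2G4A (-0.65), larger for PTGR2 (0.89), HPGDS (-0.67) and ALOX12 (-2.57) and smaller for MGLL (-0.85) and LTB4R (0.10). The 4 listed genes (CBR1, PLA2G2A, PLA2G4C and ALOX5AP) are not described, as no probeset carried their symbol alone.

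Among the 7 genes of arachidonate release, 2 fell. MGLL, monoglyceride lipase, was at 7.57 in DLBCL and 9.20 in healthy dogs (difference -1.63, SE 0.35, adjusted p = 0.000606), and PLA2G4A, the cytosolic phospholipase that feeds the cyclooxygenases, at 9.05 and 9.80 (-0.75, SE 0.23, adjusted p = 0.0118), though not with the mean of its 3 probesets (-0.37). PNPLA2, a triglyceride lipase, did not pass (-0.67, adjusted p = 0.0511), and passed without DLBCL sample 5 (-0.68, adjusted p = 0.0498). Of 7 other synthases and breakdown enzymes, PTGES3, the cytosolic prostaglandin E synthase and a co-chaperone of HSP90, rose by 0.88 (SE 0.12, adjusted p = 2.16e-06) and PTGR2, a prostaglandin reductase, by 0.46 (adjusted p = 0.0247). The call of PTGR2 was lost without healthy dog 1 (0.38, adjusted p = 0.0813) and without healthy sample 5 (0.44, adjusted p = 0.0534), at differences of similar size. HPGDS, the haematopoietic prostaglandin D synthase, fell by 0.44 (adjusted p = 0.0403) at a level near the controls, and lost the call without DLBCL samples 5 and 18 (-0.40, adjusted p = 0.0572), without healthy dog 1 (-0.33, adjusted p = 0.143) and without any one of healthy samples 5, 6, 9 and 10 (-0.43 to -0.39, adjusted p of 0.0687 to 0.0941). PTGES2, the third prostaglandin E synthase, differed by 0.40 (adjusted p = 0.0727) by its brightest probeset, while 2 dimmer ones passed at 0.50 and 0.85, and the brightest passed without DLBCL sample 5 (0.47, adjusted p = 0.00588). The prostaglandin E synthases therefore did not share a direction, with PTGES at -1.24 and PTGES3 at 0.88.

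Of the 6 other prostanoid receptors, TBXA2R, the thromboxane receptor, fell by 0.46 (SE 0.10, adjusted p = 0.000476), and the others, among them PTGER1 (0.18, adjusted p = 0.0757) and PTGER3 (-0.44, adjusted p = 0.307), did not pass. Both transport genes (ABCC4 and SLCO2A1) failed to pass. Among 9 leukotriene and lipoxygenase genes, ALOX12, an arachidonate lipoxygenase known from platelets, fell by 1.35 (SE 0.29, adjusted p = 0.000631) by its brightest probeset and LTB4R, a leukotriene B4 receptor, rose by 0.23 (adjusted p = 0.00639). The other 3 probesets of ALOX12 differed by -0.66, -0.58 and 0.01, the mean of its 4 probesets by -0.64 (adjusted p = 0.00318), and relapsed samples alone by -0.96 (adjusted p = 0.138). Of 4 platelet markers 1 was lower too, and its part in the value of ALOX12 was not tested.

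Whether relapse after chemotherapy went with another level of these genes was tested on the 7 relapsed and 16 naive arrays. None of the 8 genes passed (limma, smallest adjusted p = 0.989), nor did any of all 15115 genes (0%), and 0 of the 11 probesets had an unadjusted p under 0.05, against 4.78% of the 43035 probesets. The largest differences were those of PTGS2, higher by 0.94 in relapsed samples (SE 0.55, interval -0.20 to 2.09, exact permutation p = 0.12 over 245157 splits, two-sided), and of PTGDS, higher by 0.71 (SE 0.38, interval -0.08 to 1.501, exact permutation p = 0.088). PTGES differed by 0.50 (SE 0.39, exact permutation p = 0.23). For the remaining genes the difference was between -0.16 (HPGD) and 0.10 (PTGS1), with intervals of -0.53 to 0.59 for PTGDR, -0.18 to 0.28 for PTGER2 and -1.17 to 0.84 for HPGD. The difference of PTGDS was 0.45 without sample 12, 0.36 without samples 5 and 18 and 0.999 without sample 4 (SE 0.37, adjusted p = 0.936). Of the 31 other pathway genes 0 passed, and 2 had an unadjusted p under 0.05.

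The dog that gave both a relapsed and a naive array had all 8 genes higher at relapse by their main probeset. In relapsed sample 12 against naive sample 11, PTGDS was at 10.48 against 8.58, PTGS2 at 7.55 against 5.96, PTGS1 at 8.24 against 6.78 and PTGES at 9.85 against 8.69. The other 4 genes differed by 0.25 (PTGER2) to 0.75 (PTGER4). The dimmer probeset of PTGER2 went the other way, by -0.47. With 1 dog these differences have no replicate.

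The tumours differed among themselves, and this spread was compared with the level of cell type markers in 22 DLBCL dogs, a comparison that leaves healthy nodes out. In 80 relations of the 8 genes with 10 marker lists, limma called 12 slopes (adjusted p under 0.05 over all probesets). All 3 slopes on the macrophage and monocyte markers were upward. Per unit of the mean of these 9 markers, PTGS2 rose by 1.48 (SE 0.23, adjusted p = 0.000912), PTGES by 0.97 (SE 0.17, adjusted p = 0.00257) and PTGS1 by 0.72 (SE 0.16, adjusted p = 0.0187), which made 3 of 8 genes against 3.73% of all genes. For PTGS2 the Pearson r was 0.81 (permutation p = 2e-05) and Spearman's rho 0.833 (permutation p = 1e-05, the smallest that 100000 permutations give), and r was 0.753 without the tumours at both ends, samples 15 and 23. For PTGES r was 0.78 (permutation p = 4e-05), rho 0.83 (permutation p = 1e-05), and r was 0.802 without the same samples. PTGS1 lost the call without sample 5 at a slope of similar size (0.66, adjusted p = 0.052), and PTGS2 and PTGES kept it (adjusted p = 0.000986 and 0.00793).

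PTGS2 and PTGES also went with the 6 endothelial markers, by 2.46 (SE 0.54, adjusted p = 0.0132) and 1.56 (SE 0.39, adjusted p = 0.0321) per unit, which made 2 of 8 genes against 2.63% of all genes. Without sample 5 both stayed called, PTGS2 at 2.59 (adjusted p = 0.00612) and PTGES at 1.79 (adjusted p = 0.00023), and PTGDR joined them (slope 1.02, adjusted p = 0.0493). With RIN as a covariate PTGES on the endothelial markers was not called, at a slope of 1.70 (adjusted p = 0.0889). The marker lists of macrophages and of endothelium are means over the same arrays, and the slopes do not say in which cells a gene is expressed.

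The remaining 7 calls were lost without sample 5. HPGD rose with the mast cell markers (slope 0.98, SE 0.13, adjusted p = 3.81e-05) and fell with the B-cell markers (slope -1.41, SE 0.25, adjusted p = 0.000697), and without sample 5 the slopes were 0.26 (adjusted p = 0.933) and 1.08 (adjusted p = 0.291). PTGER2 was called on mast cell markers (0.16) and B-cell markers (-0.28), PTGES on B-cell (-0.92) and neutrophil markers (0.61), and HPGD on neutrophil markers (0.87). The counts were 3 of 8 genes on B-cell markers (8.12% of all genes), 2 on mast cell markers (4.55%) and 2 on neutrophil markers (2.42%), and 0 in each without sample 5. The slope of PTGER2 on B-cell markers stayed of similar size without that sample (-0.25, adjusted p = 0.608). Those of PTGES did not shrink (-2.17 on B-cell markers, adjusted p = 0.13, and 0.62 on neutrophil markers, adjusted p = 0.524), while those of HPGD on mast cell and neutrophil markers and of PTGER2 on mast cell markers (0.04) did.

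PTGDR did not pass on the T-cell markers (slope 0.77, SE 0.18, adjusted p = 0.108), where r was 0.671 (permutation p = 0.00087), rho 0.573 (permutation p = 0.0066) and r 0.59 without samples 20 and 23. The relation was not particular to PTGDR. On the same markers PTGES had r of 0.654 (limma adjusted p = 0.129) and PTGS2 r of 0.624 (limma adjusted p = 0.17). With the endothelial markers the rho of PTGDR was 0.651. PTGER4 and PTGDS had 0 called slopes on the 10 lists.

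**Figure D3:**
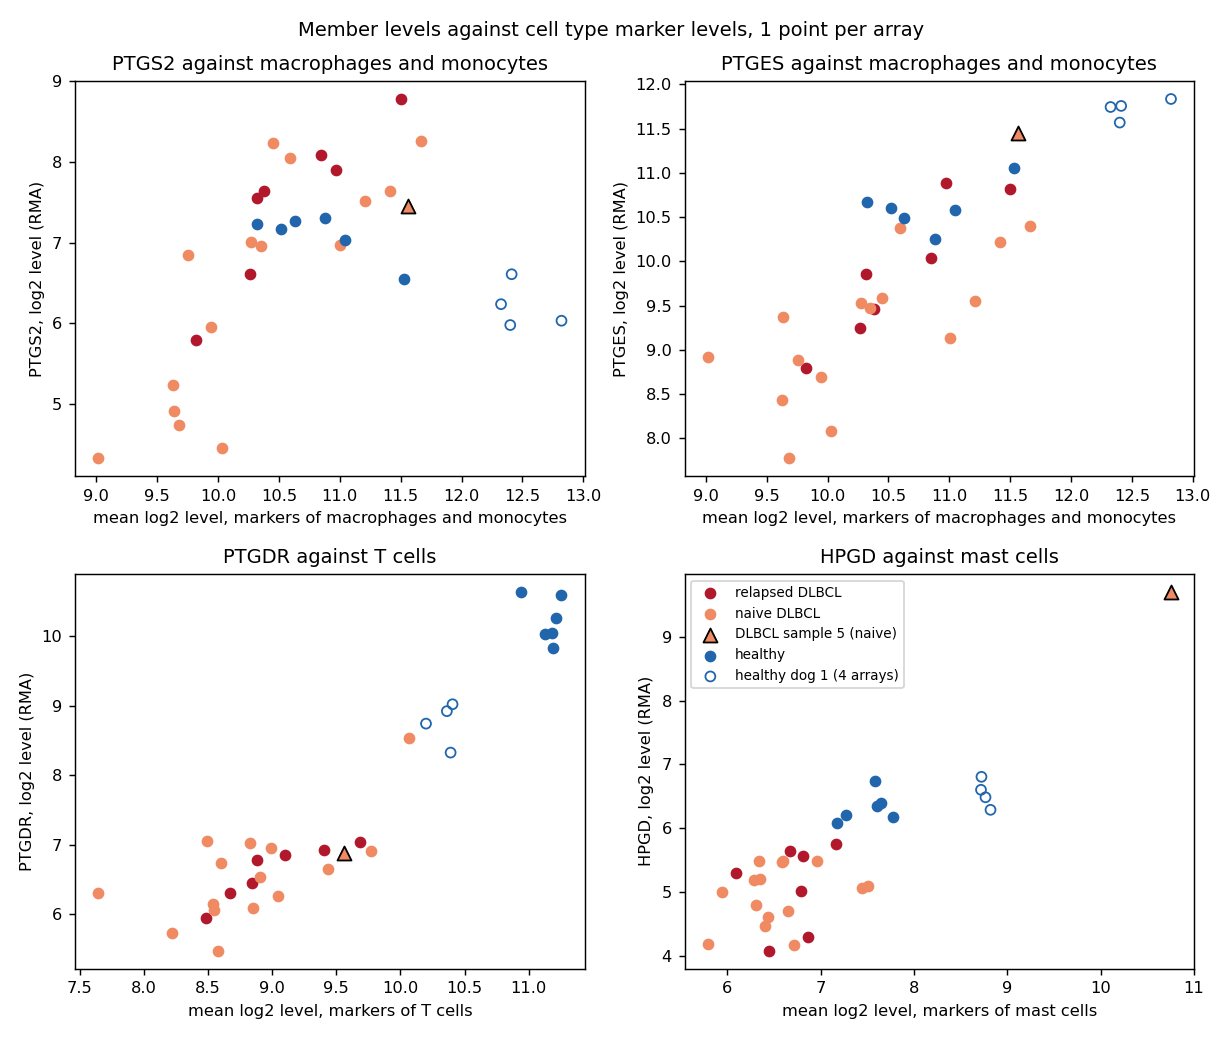
Levels of PTGS2, PTGES, PTGDR and HPGD (log2) against the mean log2 level of the named marker list, 1 point per array. PTGS2 and PTGES climb with the macrophage markers among tumours, healthy dog 1 has low PTGS2 at the highest marker level, and the slope of HPGD on mast cell markers hangs on the triangle, DLBCL sample 5.

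**Figure D4:**
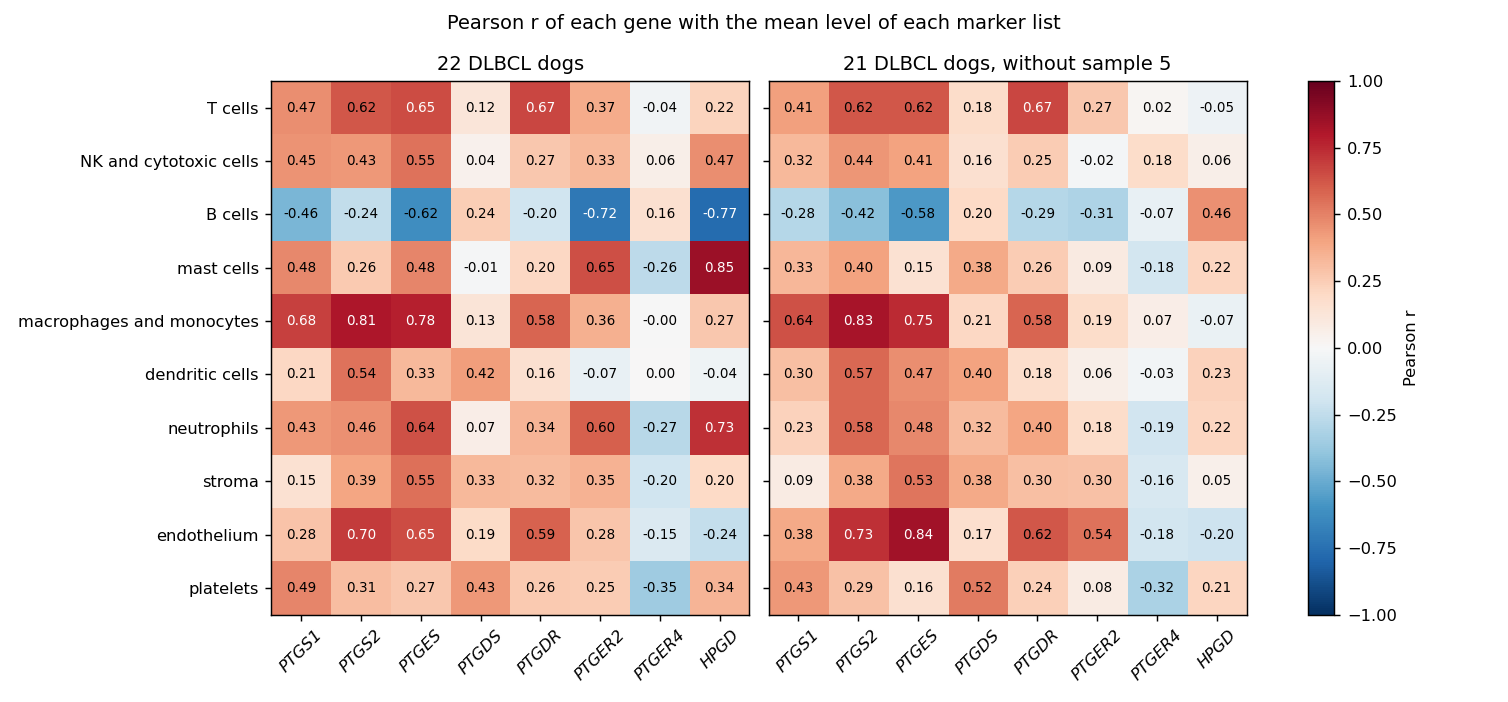
Pearson r of each gene (columns) with the mean level of each marker list (rows) over 22 DLBCL dogs (left) and without DLBCL sample 5 (right, 21 dogs). PTGS2 with macrophage markers stays at 0.81 and 0.83, while HPGD with mast cell markers is at 0.85 on the left and 0.22 on the right.

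Among the 28 pairs of the 8 genes, 1 pair was called, PTGS2 with PTGES. PTGES rose by 0.53 per unit of PTGS2 (SE 0.09, adjusted p = 0.00352), where 1.12% of all genes had a slope on PTGS2, and PTGS2 by 1.15 per unit of PTGES (SE 0.19, adjusted p = 0.0011), where 6.38% did. Over 22 DLBCL dogs r was 0.782 and rho 0.842 (permutation p = 1e-05 each, the smallest that can be given), and r was 0.813 without samples 5 and 6. In the 7 healthy dogs the order was the opposite, with r of -0.955 (exact permutation p = 0.0028) and rho of -0.857 (exact permutation p = 0.024). That relation rests on healthy dog 1 and healthy sample 5, without which r was -0.553. Without healthy dog 1 alone r was -0.886, and without healthy samples 5 and 10 as well it was -0.146. Healthy dog 1 and healthy sample 5 had the highest RIN of the healthy dogs (9.15 and 7.7), and the part of RNA quality was not tested. No other pair was examined in the healthy dogs, and the difference between DLBCL and healthy dogs was not tested. The pairs PTGS1 with PTGS2 (r = 0.542, permutation p = 0.0097) and PTGDR with PTGS1 (r = 0.57, permutation p = 0.0043) were not called by limma. Pairs with HPGD depended on sample 5. Without that sample r went from 0.468 to -0.441 for PTGER2 with HPGD and from 0.131 to 0.682 for PTGDS with HPGD. The limma slopes of the pairs were not fitted without sample 5.

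**Figure D5:**
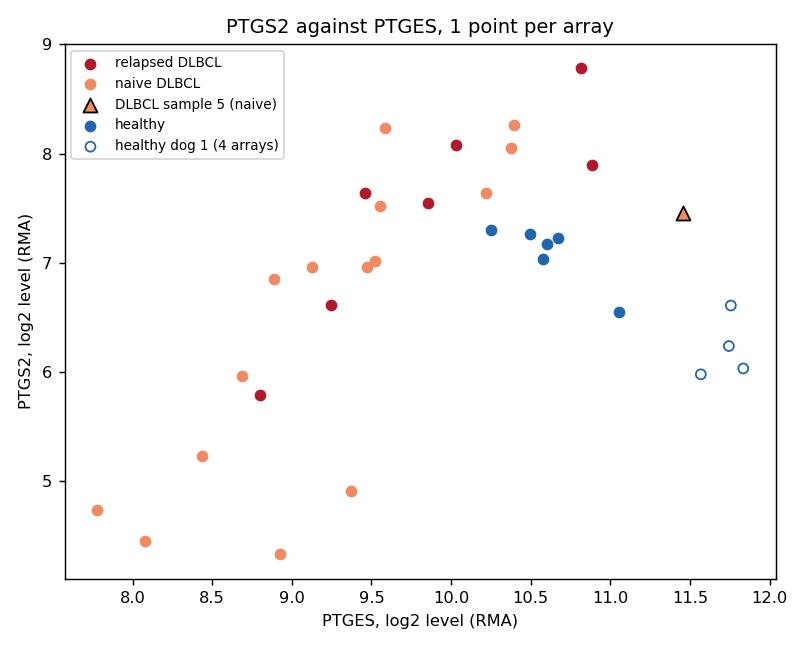
PTGS2 against PTGES (log2 levels), 1 point per array. The DLBCL arrays run upward from low to high values of both genes, and the healthy arrays run downward, with healthy dog 1 highest in PTGES and lowest in PTGS2.

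The genes whose level was most like that of each member over the 22 DLBCL dogs were listed by Pearson r, as a description that shares arrays and cell makeup. For PTGES they were CYFIP1 (0.935), RGS2 (0.917) and GPX1 (0.91), and for PTGS2 they were C1R (0.933), SERPING1 (0.897) and MME (0.893). C1R and SERPING1 encode a complement protease and its inhibitor, and MME the surface peptidase CD10. PTGDS was most like CXCL12 (0.873), a chemokine of stromal cells, CCDC3 (0.87) and ECM2 (0.85). PTGS1 was most like IL1R2 (0.78), a decoy receptor for interleukin-1, MARCO (0.744), a scavenger receptor of macrophages, and TYRO3 (0.741).

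For PTGDR the list was CD52 (0.767), a surface glycoprotein of lymphocytes and monocytes, GSDME (0.728) and USP9X (0.727), and for PTGER4 it was EXOSC9 (0.722), RFK (0.682) and LOC482176 (0.666). PTGER2 was most like PGM1 (0.911), PLEKHG3 (0.809) and KIF27 (0.788). HPGD was most like LOC475395 (0.918), MS4A2 (0.907), a chain of the IgE receptor of mast cells, and NLGN4X (0.902). Without samples 5 and 18 these last 3 were at 0.647, 0.3 and 0.323, while C1R with PTGS2 stayed at 0.929 and CYFIP1 with PTGES at 0.901. In the same setting PTGER2 had r of 0.853 with PGM1, 0.614 with PLEKHG3 and 0.594 with KIF27.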

How the data were processed

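The authors amplified the RNA, hybridised it and processed the scans by RMA (Affymetrix Expression Console), and the deposited values are log2 levels per probeset of 2.2 to 15.49. No version of that program was named in what was read here. All sample columns were used (0 others). Because RMA forces a common distribution on the arrays, a shift of all transcripts would be lost, and differences at low signal come out too small. The number of arrays limits the precision. The 2 batches of RNA extraction were not assigned to samples here.

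Groups came from the sample labels. Gene names came from the platform annotation, in which 29264 probesets had 1 symbol, 439 had several and 13332 were unnamed here, and the brightest probeset (highest mean over 33 arrays) stood for a gene. The 8 members matched RefSeq names. Members, pathway lists and marker lists were chosen with earlier results of these data known. Named are all members, the pathway genes past the threshold with others as examples, and the 3 genes most like each member.

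Models were fitted to all 43035 probesets with limma 3.58.1 in R 4.3.3, with Benjamini-Hochberg adjustment and a threshold of 0.05. Arrays of 1 dog were averaged, and kept apart between relapsed and naive samples. Correlations used 100000 permutations (Python 3.11.15, numpy 2.4.6, scipy 1.17.1, pandas 2.3.3), and plots matplotlib 3.10.9. The fits were tested on simulated data. Alternatives were separate arrays, the dog as a random block (correlation 0.576), a replicate block, RIN as a covariate, other normalizations, a filter at the 25th percentile, subsets of samples, the mean of probesets and, added after the values were seen, DLBCL sample 5 left out and the array day as a block, read from the study's supplement for 18 DLBCL arrays. The supplement gives dates in array file names, which were taken as the array day. The match of these names to samples by number was assumed, and sample 5, listed under different dates, was left out of that block.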

Additional observations from a re-analysis of the deposited data

Results flagged for a closer look

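In 2 of the 22 groups of values examined (11 probesets in the healthy dogs and in the relapsed arrays), 1 sample lay far from the rest, where chance gives about 1 in 20. Both times it was healthy dog 1. Its PTGDR level of 8.753 was the lowest of the 7 healthy dogs, with the nearest at 9.832, and its level of 9.558 by the dimmest PTGES probeset was the highest, with the nearest at 8.672. The 4 arrays of this dog spread with an SD of 0.31 for PTGDR and 0.17 for that PTGES probeset.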

How the results depend on the processing

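With quantile normalization or centring on the median, the results recomputed kept their direction and their side of the threshold. Because RMA had already given the arrays a common distribution, these settings could change little. With a filter at the 25th percentile HPGDS was not tested and PNPLA2 passed (adjusted p = 0.0432), and the count of lower pathway genes was 5 again. The number of members lower by more than 1 was 5 under each alternative except relapsed samples only, where it was 4, and 5 without each healthy dog in turn, but with the mean of a gene's probesets PTGER2 stood in place of PTGES. This number takes no account of the standard errors. With RIN as a covariate the differences were -2.35 (SE 0.66) for PTGS1, -2.46 (SE 0.74) for PTGDS, -1.52 (SE 0.76) for PTGES and -1.46 (SE 0.91) for HPGD. Without RIN these standard errors were 0.30 to 0.42. The counts of other pathway genes depended more on the setting. With RIN as a covariate 1 was lower and 0 higher, with relapsed samples only 2 were lower, with the mean of a gene's probesets 3 were lower, and with 33 arrays as separate samples 5 were higher. With a replicate block for shared sample numbers 1 was higher and 4 were lower, while members lower by more than 1 stayed at 5. Sample numbers did not pair dogs: over 9 shared numbers the deviations correlated at -0.142 to 0.13, 2 of them over 0.1, and 1 sample correlated best with its own number. Leaving out each healthy dog gave 4 to 6 lower and 2 to 4 higher. Called slopes on marker levels numbered 5 without DLBCL samples 5 and 18 and 5 without sample 5 alone, against 12, and 10 with RIN as a covariate. HPGD on the B-cell markers turned to 1.20 and 1.08 under the first pair of settings. Relapsed minus naive differences near 0 changed sign: PTGDR was at -0.0401 without sample 12, -0.0841 with RIN as a covariate, -0.00992 without sample 4 and -0.28 with the array day as a block, PTGS1 at -0.0763 without sample 12, -0.0468 without sample 4 and -0.16 with the array day, and HPGD at 0.0535 without samples 5 and 18. The members called between relapsed and naive samples remained 0 throughout. The cause of these changes was not tested. The dog as a random block could not be fitted between relapsed and naive samples, since 1 dog has both arrays.

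The healthy nodes came from 7 dogs. They were taken from dogs put down, while the DLBCL samples were biopsies, and the part of this in the differences was not tested. RIN was 8.9 or above in DLBCL and 7.7 or below in the healthy dogs other than healthy dog 1, so that without that dog RNA quality and disease cannot be told apart. Levels near the controls, as for PTGER2, for HPGD in DLBCL and for the lowest PTGS2 values, are compressed. The array days of the healthy nodes were not used here.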
